A study of Homo sapiens with 2 samples.

Results

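A set of 10 microRNAs (miRNAs) with a lower array signal in exosomes of the HuH-7-M culture than in exosomes of the HuH-7-P culture are described here: hsa-miR-5580-3p, hsa-miR-658, hsa-miR-9500, hsa-miR-1296-3p, hsa-miR-7114-3p, hsa-miR-7856-5p, hsa-miR-3162-3p, hsa-miR-5190, hsa-miR-7156-3p and hsa-miR-206 (the prefix hsa, for human, is left out below). They are 10 of the 2565 miRNA probes of the array and were picked because their HuH-7-M signal was lower, so the direction of their differences is a description and was not tested. HuH-7 is a human hepatocellular carcinoma cell line, and the labels do not spell out what P and M stand for. Both cultures were grown in serum-containing medium and moved to advanced DMEM before exosomes, small vesicles that cells release, were pelleted by ultracentrifugation. RNA of each pellet was labelled with Cy5 and hybridised to 1 one-colour 3D-Gene array, giving 2 samples in all, 1 per culture. No difference below therefore has a replicate, and the number of arrays limits the precision. Less RNA per vesicle and fewer vesicles cannot be told apart in such data. Where a pair of values is given, the HuH-7-P value comes first.

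A miRNA gene is transcribed as a hairpin, and either arm of the hairpin, called 5p or 3p, can be loaded into an Argonaute protein as the mature miRNA. Pairing between the seed of the miRNA, its bases 2 to 8, and a messenger RNA guides repression of that messenger. Most miRNAs of this set are sparsely studied. miR-206 is the exception, a well-described skeletal muscle miRNA of the miR-1 family that supports myoblast differentiation.

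The mature sequences show how unlike the members are, and so are printed first, 5′ to 3′ with the seed in capitals. They were taken from RefSeq on GRCh38.p14, where all 10 matched by name and each had a single genomic locus.
miR-5580-3p, chr14:53948427-53948448, minus strand: cACAUAUGaagugagccagcac
miR-658, chr22:37844287-37844311, minus strand: gGCGGAGGgaaguagguccguuggu
miR-9500, chr2:218823092-218823110, plus strand: aAGGGAAGauggugaccac
miR-1296-3p, chr10:63372969-63372990, minus strand: gAGUGGGGcuucgacccuaacc
miR-7114-3p, chr9:137450026-137450046, minus strand: uGACCCACcccucuccaccag
miR-7856-5p, chr1:86357665-86357685, minus strand: uUUUAAGGacacugagggauc
miR-3162-3p, chr11:59595087-59595107, minus strand: uCCCUACCccuccacucccca
miR-5190, chr18:13459993-13460013, plus strand: cCAGUGACugagcuggagcca
miR-7156-3p, chr1:77060180-77060202, plus strand: cUGCAGCCacuuggggaacuggu
miR-206, chr6:52144401-52144422, plus strand: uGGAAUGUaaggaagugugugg
The 10 miRNAs carry 10 different seeds and lie on 9 chromosomes. Over the 45 pairs of members, the longest run of bases shared by a pair had a median of 4 and a maximum of 7. That maximum was reached by miR-658 with miR-9500 (AGGGAAG) and by miR-7114-3p with miR-3162-3p (ACCCCUC). miR-3162-3p has 14 C and 0 G among its 21 bases and miR-7114-3p 12 C and 2 G, whereas miR-206 has 10 G and 0 C among 22. The members' GC content ranged from 42.9% to 66.7% with a median of 61.4%, against a median of 59.1% over the 1402 measured miRNAs with a sequence. Of the 10 members 5 are 3p arms, against 33.9% of those 1402.

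Of the 10 loci, 8 lie within the span of a protein-coding gene in the RefSeq gene table, which does not say whether that is exon or intron. On the strand of the surrounding gene lie miR-658 in ANKRD54, miR-1296 in JMJD1C (of the JmjC demethylase family), miR-7114 in NSMF, miR-7856 in ODF2L, miR-3162 in OSBP (the oxysterol-binding protein), miR-5190 in LDLRAD4 (an inhibitor of TGF-beta signalling) and miR-7156 in ST6GALNAC5 (a sialyltransferase). miR-9500 lies within PRKAG3, which encodes a gamma subunit of AMP-activated protein kinase in muscle, on the opposite strand. No other gene of that table spans miR-5580 or miR-206. Within 10000 bases, only miR-658 and miR-206 had another miRNA of the RefSeq table: miR-659 began 3381 bases from miR-658, and miR-133b 4565 bases from miR-206.

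Precision within an array was judged from control spots. The 320 BLANK spots averaged 59.7 ± 1.64 and 58.7 ± 1.63 (SD over all such spots of each array). A spot brighter than their mean plus 2 SD counted as above background. For this limit, 62.3 and 61.2, the mean and SD were taken with 5% of the spots left out at each end. By that limit 1593 miRNAs were measured on both arrays, all 10 members among them. A second kind of empty spot, labelled No Probe, was brighter, at 79.8 ± 7.20 and 81.1 ± 5.73 over 85 spots. Repeat spots of 24 control probes varied with a pooled log2 SD of 0.16 and 0.18, which gives a difference between 2 single spots a technical spread of 0.24. This spread covers neither the cultures nor the labelling, hybridisation and scanning of an array. The No Probe limit, 86.9 and 89.9, is the mean plus 2 SD of these spots with the same 5% left out, and is lower than all 85 would give. Of the hepatocyte list, 5 of 6 miRNAs were measured, 2 of them also above the No Probe limit on each array. miR-122-5p, the defining miRNA of hepatocytes, read 99.7 and 126 in spot intensity. None of the 5 measured differed by 2-fold on the normalized scale described below, but all were too dim on HuH-7-P to show a 2-fold fall there. Summed intensities over the list were 477 and 502. Such sums include the background of every spot, which makes up most of them. Blood miRNAs had 3 of 5 measured and 0 above both No Probe limits, with sums of 317 and 309.

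All 10 members were lower on the HuH-7-M array, by 3.31-fold to 18.1-fold in signal with a median of 5.27-fold, where signal is the spot intensity minus the mean of the BLANK spots in scanner units. Their signals spanned 42.3 to 1266 (median 209) on the HuH-7-P array. The HuH-7-M signals spanned 12.1 to 184 (median 37.8). Any lower signal on HuH-7-M was seen for 49.5% of the 1593 measured miRNAs. After a normalization that adds an offset of 50 and equalises the distributions of both arrays, 7 of the 10 were at least 2-fold lower, against 1.69% of all measured miRNAs. The 620th brightest miRNA probe on HuH-7-P stood at 6.63 in normalized log2, and miR-1-3p, not above background, at 5.65. Most of the 1593 were thus too dim there to show a 2-fold fall on this scale, which lowers the 1.69%. The rule picked the members from this same contrast, so nothing is read from that gap. The median of the normalized log2 differences, taken as HuH-7-M less HuH-7-P throughout, was -1.55 over the members and 0.01 over all measured miRNAs. Background correction by the column that the scanner names as background left only miR-5580-3p at least 2-fold lower (-1.98, against 1.13% of measured miRNAs) and brought the other 9 to between -0.26 and 0.099. That column was itself lower on HuH-7-M at all 10 member spots, against 61.6% of the measured miRNAs. At several member spots the column was close to the spot intensity, as at miR-658 on HuH-7-P (805 beside 762). Since the members were picked for a lower spot signal, nothing is read from that count.

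**Figure D1:**
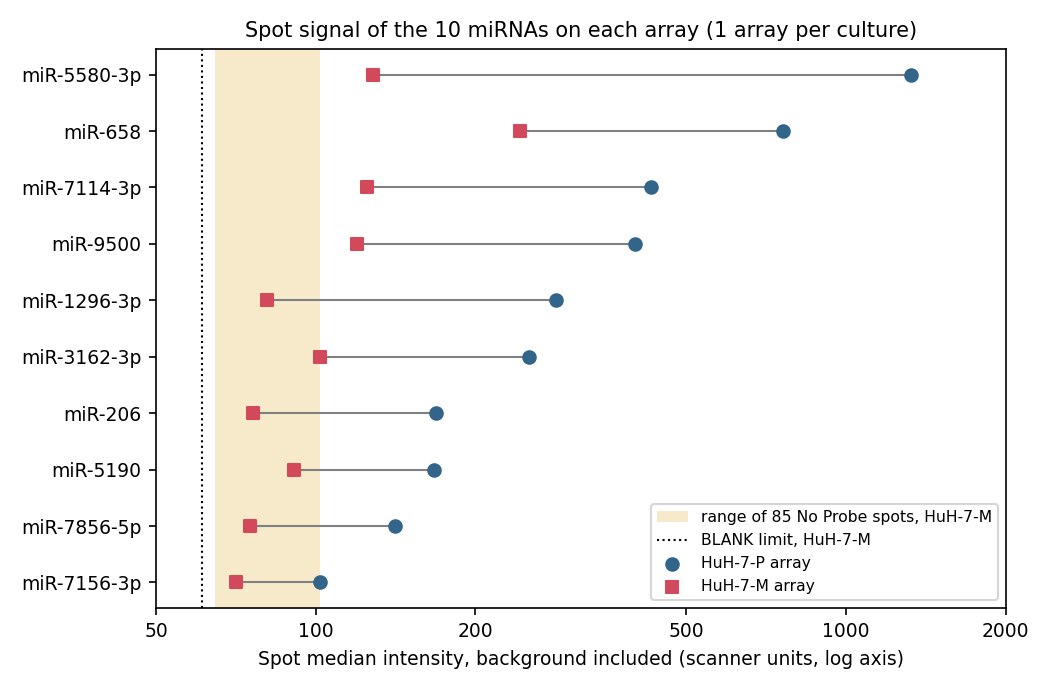
Spot median intensity of each of the 10 miRNAs on the HuH-7-P array (blue circles) and the HuH-7-M array (red squares), with background included and a log axis; the dotted line is the BLANK limit of HuH-7-M (61.2) and the shaded band the range of its 85 No Probe spots (64.6 to 102). Every red square lies left of its blue circle, and miR-1296-3p, miR-5190, miR-206, miR-7856-5p and miR-7156-3p fall inside the band on HuH-7-M, with miR-3162-3p at its upper edge.

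miR-5580-3p stood furthest apart. Its signal was 1266 and 69.8, so that HuH-7-M held 5.51% of the HuH-7-P value, and its normalized log2 values were 10.60 and 6.91 (difference -3.68). It fell from the 58th to the 514th brightest of 2565 probes. Only 2 measured miRNAs had a lower difference, and the measured miRNA nearest to it in the plane of both normalized levels was miR-381-3p (-4.40), at a distance of 0.62 log2 units.

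A middle group of 4 had signals of 224 to 702 on HuH-7-P. miR-658 read 702 and 184 (normalized difference -1.74) and was the brightest member on HuH-7-M. miR-7114-3p read 370 and 66.2 (-1.87), and miR-9500 read 340 and 60.7 (-1.79). Both kept about the same share of the HuH-7-P signal, 17.9% each. Signals of miR-1296-3p were 224 and 22.4 (-1.87), or 9.97% of the HuH-7-P value. The normalized differences of these 4 lay within 0.24 of each other and so were not separable by the technical spread, although their folds in signal ran from 3.81 for miR-658 to 10.0 for miR-1296-3p. On HuH-7-M, miR-1296-3p lay in the middle of the empty No Probe spots, 39 of 85 of which exceeded it, while no No Probe spot exceeded the other 3.

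The remaining 5 were dimmer. miR-3162-3p read 193 and 43.2 (-1.36), and miR-206 read 109 and 17.3 (-1.21). These complete the 7 that were at least 2-fold lower on the normalized scale. miR-7856-5p, at 81.4 and 16.4, had a difference of -0.99, just short of 2-fold on that scale and 4.95-fold in signal. miR-5190 read 107 and 32.4 (-0.90, 3.31-fold in signal). miR-7156-3p, the dimmest member, read 42.3 and 12.1 (-0.55, 3.50-fold in signal). At 6.52 in normalized log2 on HuH-7-P, miR-7156-3p was too dim to show a 2-fold fall on the normalized scale. The last 3 are thus at least 2-fold lower in signal but not on the scale with the offset, which pulls the differences of dim probes toward 0. Without an offset, after BLANK subtraction and quantile normalization, all 10 were past 2-fold, against 4.58% of measured miRNAs. With an offset of 16 all 10 were past 2-fold too, against 2.45%. They were also past it on a scale set by the Spike Control spots, against 4.58%, but there the measured miRNAs as a whole had a median difference of -0.58, and relative to this shift miR-7856-5p, miR-5190 and miR-7156-3p stayed short of 2-fold. Nothing is read from these counts either, since the members were chosen from this contrast.

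All 10 members exceeded the No Probe limit of the HuH-7-P array, and 6 also that of the HuH-7-M array. Of these 6, 5 were at least 2-fold lower, against 2.78% of the miRNAs above both limits. The 4 that did not were miR-1296-3p, miR-7856-5p, miR-7156-3p and miR-206. Of the 85 No Probe spots on HuH-7-M, 73 were brighter than miR-7856-5p, 70 brighter than miR-206 and 83 brighter than miR-7156-3p. miR-5190 exceeded the limit but also lay within the range of the No Probe spots, 2 of which were brighter. For these 5 and for miR-3162-3p, just above that range, the size of the fold depends on which empty spot is taken as 0. With the No Probe mean as 0, a choice made after seeing the data, the fold in signal of miR-5190 became 8.68 and that of miR-3162-3p 8.30, and those of the other 4 members above the limit ran from 4.21 for miR-658 to 26.2 for miR-5580-3p.

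**Figure D2:**
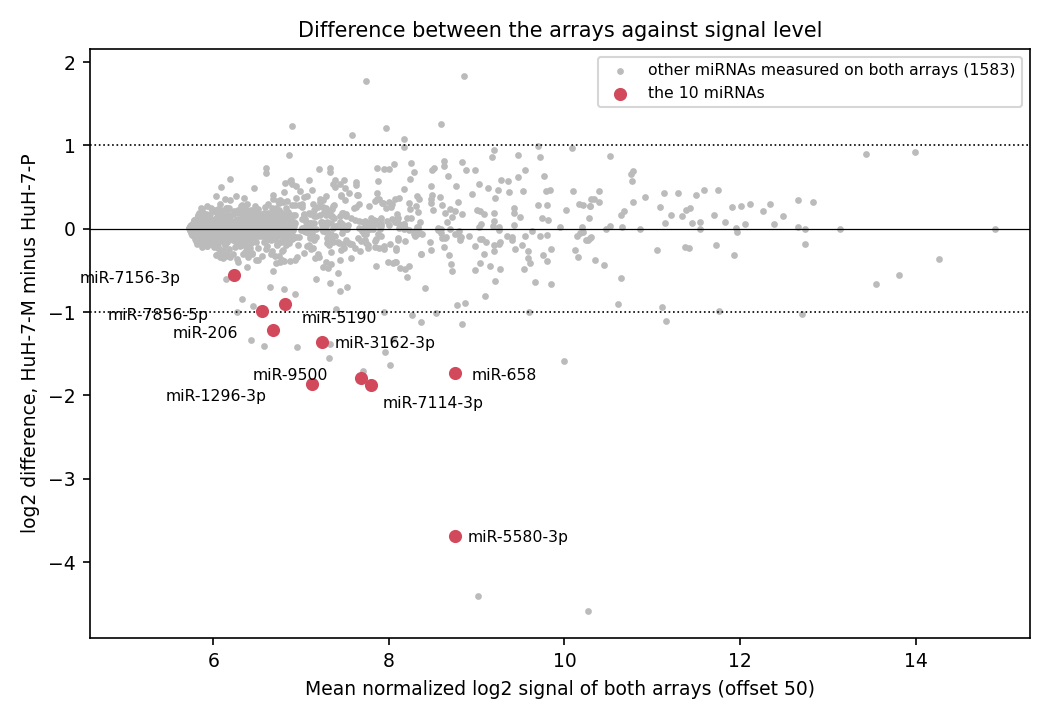
Normalized difference (log2, HuH-7-M less HuH-7-P) against the mean normalized log2 signal of both arrays for the 1593 measured miRNAs, the 10 members in red and the others in grey, with dotted lines at 2-fold. The members lie at the lower edge of the cloud from -0.55 (miR-7156-3p) to -3.68 (miR-5580-3p), and 2 grey points lie lower than miR-5580-3p.

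The opposite arm of the same hairpin was not used to choose the members. It was on the array for 5 of them and measured on both arrays for 4, and none of these 4 differed by 2-fold. Of the 4, only miR-7114-5p and miR-3162-5p were bright enough on HuH-7-P to show a 2-fold fall on the normalized scale. The hairpins are printed with the member arm in capitals because they place both arms on 1 transcript.
miR-5580 hairpin, chr14:53948427-53948484, minus strand: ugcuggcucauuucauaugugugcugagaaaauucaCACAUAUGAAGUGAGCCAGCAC
miR-7114 hairpin, chr9:137450026-137450086, minus strand: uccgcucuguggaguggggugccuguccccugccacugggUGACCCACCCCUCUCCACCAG
miR-3162 hairpin, chr11:59595077-59595158, minus strand: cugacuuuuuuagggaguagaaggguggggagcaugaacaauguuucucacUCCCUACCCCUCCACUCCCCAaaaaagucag
miR-7114-5p read 583 and 501 in signal (-0.27), beside -1.87 for miR-7114-3p. miR-3162-5p was level, at 272 and 272 (0.018), beside -1.36 for miR-3162-3p. Both of these 5p arms exceeded each array's No Probe limit.

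The other 2 measured arms were close to background. miR-5580-5p read 14.1 and 9.54 (-0.098), beside -3.68 for miR-5580-3p, and miR-1296-5p read 9.22 and 14.1 (0.12), beside -1.87 for miR-1296-3p. Both lay under the No Probe limit of each array. On HuH-7-P their normalized log2 values were 5.99 and 5.89, while miR-1-3p, which was not above background, stood at 5.65. A 2-fold fall could thus not have shown in either arm. miR-7156-5p was not above the BLANK limit on either array. Over the 397 hairpins of the array with both arms measured, the 3p and 5p differences lay a median of 0.15 apart, and 5.29% of the pairs differed by 1 or more. Pairs with dim arms are counted here too, and the offset pulls their differences toward 0. The gap was -3.59 for miR-5580, the largest of the 397, -1.99 for miR-1296, -1.60 for miR-7114 and -1.38 for miR-3162, with the member arm being the reason each hairpin was looked at. For miR-5580 and miR-1296, whose 5p arms were near background, the gap mostly repeats the member's own difference.

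**Figure D3:**
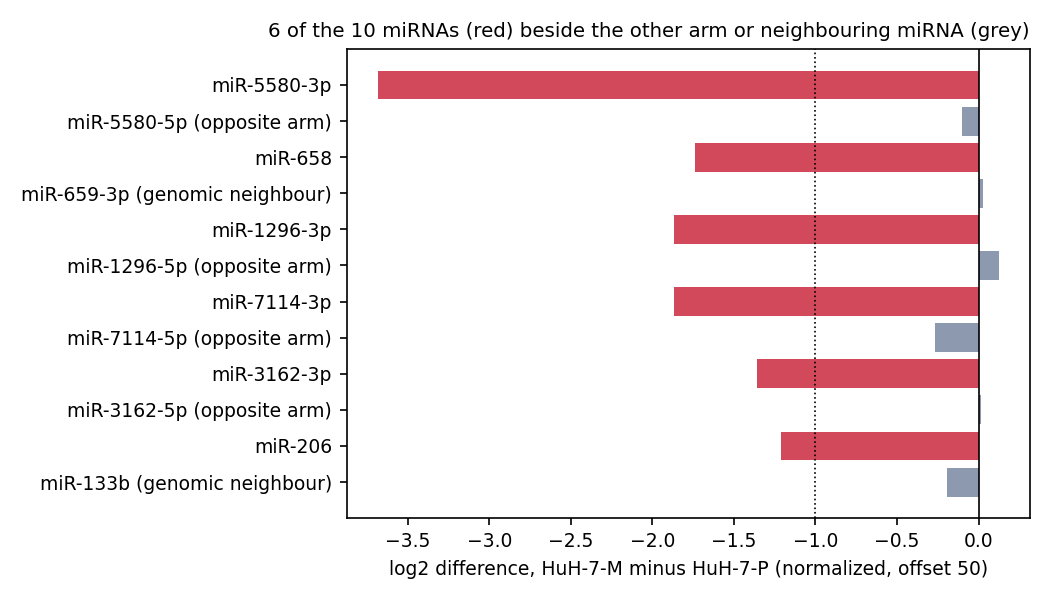
Normalized difference (log2, HuH-7-M less HuH-7-P) of 6 members (red bars) beside the measured opposite arm of the same hairpin or a measured neighbouring miRNA gene (grey bars); the dotted line marks 2-fold lower. The red bars run from -1.21 to -3.68 and the grey bars from -0.27 to 0.12. Among the grey bars, only miR-7114-5p and miR-3162-5p were bright enough on HuH-7-P to reach the dotted line.

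The remaining hairpin worth printing is that of miR-7856, whose arms pair without a mismatch over 24 base pairs, against 5 to 13 for the longest perfect stretch in the other 8 member hairpins with a RefSeq entry.
miR-7856 hairpin, chr1:86357632-86357687, minus strand: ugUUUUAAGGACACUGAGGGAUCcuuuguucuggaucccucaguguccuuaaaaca
Its 5p arm, in capitals, is the arm on the array.

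The measured neighbours, miR-659-3p and miR-133b, were too dim on HuH-7-P to show a 2-fold fall on the normalized scale. Their normalized log2 values there were 6.22 and 6.14, while miR-1-3p, which was not above background, stood at 5.65. Beside miR-658 (-1.74), miR-659-3p had a signal of 25.3 and 25.6 (0.029), under each array's No Probe limit, and miR-659-5p was above the BLANK limit of neither. miR-133b, the neighbour of miR-206 and also a muscle miRNA, read 20.8 and 11.7 (-0.19), against -1.21 for miR-206.

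miR-206 shares its seed with 2 other miRNAs of the array, and the 3 are printed to show how close they are.
miR-206: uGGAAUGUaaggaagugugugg
miR-1-3p: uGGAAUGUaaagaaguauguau
miR-613: aGGAAUGUuccuucuuugcc
miR-206 and miR-1-3p differ at 4 of 22 positions, counted from the 5′ end (G11A, G17A, G21A and G22U, miR-206 first). Neither miR-1-3p, with spot intensities of 50.8 and 54.1, nor miR-613, with 55.2 and 55.8, was above the BLANK limit on either array. Of the 8 miRNAs on the muscle list 4 were measured on both arrays and miR-206 alone was at least 2-fold lower. No other on the list was bright enough on HuH-7-P to show a 2-fold fall on the normalized scale. The brightest of those others was miR-486-5p, at 6.33 in normalized log2. The other measured ones were miR-133b, miR-133a-3p (-0.027) and miR-486-5p (-0.026), and miR-1-3p, miR-208a-3p, miR-208b-3p and miR-499a-5p were not above the BLANK limit on either array. None of the 8 exceeded both No Probe limits. Summed over the 8, the spot intensities were 620 and 515, and without miR-206, which was picked for being lower, 452 and 439. These sums include the background of every spot, which makes up most of them.

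miR-7114-3p shares its seed with 1 array miRNA, miR-1180-5p, which read 4.41 and 4.28 (0.0031). At 5.76 in normalized log2 on HuH-7-P and under each array's No Probe limit, miR-1180-5p was too dim to show a 2-fold fall. No other member shared its seed with an array miRNA that has a sequence here.

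The closest sequence to any member apart from the miR-206 pair was that of miR-7515 to miR-9500. They share a run of 16 bases, in capitals here, and come from distant loci of chromosome 2.
miR-9500, chr2:218823092-218823110, plus strand: AAGGGAAGAUGGUGACcac
miR-7515, chr2:6650418-6650435, plus strand: agAAGGGAAGAUGGUGAC
miR-7515 read 47.8 and 28.3 in signal (-0.29), lower on HuH-7-M as miR-9500 was but within 2-fold, beside -1.79 for miR-9500. At 6.59 in normalized log2 on HuH-7-P, miR-7515 was too dim to show a 2-fold fall on that scale. For the other 8 members the nearest mature sequence on the array was 6 to 9 single-base edits away. The 6 miRNAs nearest to miR-7114-3p, each 6 edits away, lay between -0.087 and 0.32, and the 2 nearest to miR-3162-3p, miR-6752-3p and miR-6797-3p, were at 0.010 and -0.021. These miRNAs stood at 5.82 to 6.63 in normalized log2 on HuH-7-P, so they too were too dim to show a 2-fold fall.

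The members lay in 9 of the 32 blocks of the array. Within a block, 4 of the 10 were in row 9, which holds 12.6% of the measured miRNAs, and 3 were in column 7, which holds 10.4%. Another 3 were in column 3. The part of position in the differences was not tested. Every member spot carried an unflagged reading on both arrays. The measured miRNA spots that touch a member numbered 37, none was at least 2-fold lower, and the lowest was at -0.40. Some of these spots, such as miR-5580-5p and miR-659-3p, were too dim to show a 2-fold fall. So were miR-5681b and miR-3127-3p, which touch miR-3162-3p, and every measured spot that touches miR-206. Median differences of these adjacent spots ran from -0.051 beside miR-3162-3p to 0.11 beside miR-7114-3p.

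By level on both arrays, other measured miRNAs lay close to several members. miR-4697-3p (signal 378 and 66.8, difference -1.89) was 0.045 log2 units from miR-7114-3p, and miR-4684-3p (334 and 65.5, -1.71) was 0.065 from miR-9500. miR-3138 (-1.38) lay 0.13 from miR-3162-3p, and miR-140-3p (-1.41) lay 0.20 from miR-206. Likeness here rests on 2 arrays only. Of the 27 measured miRNAs that were at least 2-fold lower, 20 were not members, and 47 non-members had a lower difference than miR-7156-3p.

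The identity of most members depends on which deposited file names the probes. The authors' deposited table held a value that could be matched to the scanner reading for 9 of the 10, miR-9500 being the exception. Only for miR-658 (576 and 155 in the authors' deposited table) and miR-206 (89.2 and 14.6) did that value stand under the member's own identifier, and the other 7 stood under another miRNA's. All 9 were at least 2-fold lower in those values, against 4.16% of the miRNAs with a value for both arrays. The values were matched by their equality with the rescaled scanner signal, so this count repeats the contrast that picked the members. The value of miR-5580-3p (1039 and 58.6), for example, is listed in the authors' deposited table under the identifier that the scanner output gives to miR-664b-3p. Under its own identifiers, the authors' deposited table gives miR-5580-3p 12.0 and 11.7, miR-5190 110 and 139, and miR-7114-3p 5.67 and 7.45. Scanner names are used throughout.

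**Figure D4:**
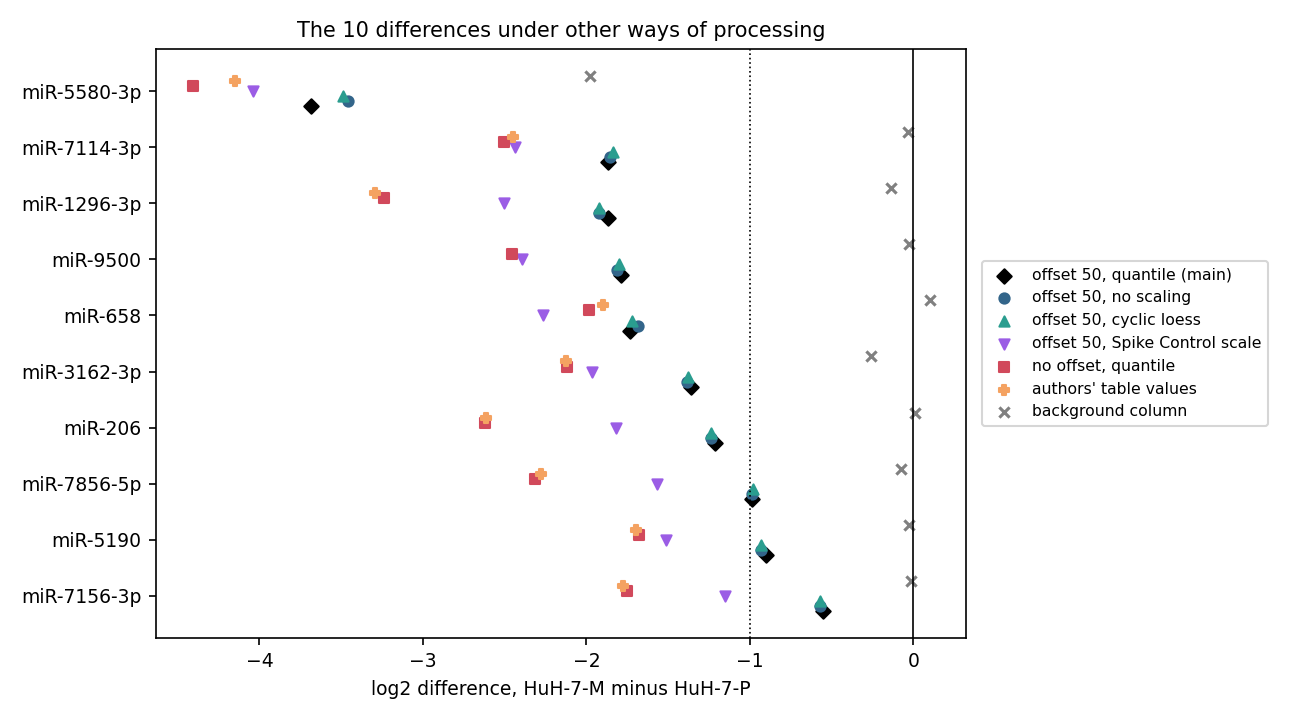
Difference (log2, HuH-7-M less HuH-7-P) of each of the 10 miRNAs under 7 ways of processing; the dotted line marks 2-fold lower, and miR-9500 has no point for the authors' table. Apart from the background column (grey crosses), every point lies below 0, and a value without an added offset (red square or the authors' table) lies furthest left for each miRNA except miR-658, where the Spike Control scale does.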

How the data were processed

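Each deposited scanner file gives, per the file headers, the Cy5 spot median intensity for 3200 spots, joined from scans at 3 gains and not background-subtracted. The authors also deposited a table of linear intensity values for 2552 identifiers, which 1739 probes matched to a relative tolerance of 1e-06 once the BLANK mean was subtracted and each array scaled to a median of 25. Software for that table was not given in the sources used here. Signal is the spot intensity minus the mean of the BLANK spots, 5% left out at each end. The BLANK and No Probe limits leave out the same 5%. Normalized values are normexp on the BLANK spots with an offset of 50 (nec, limma 3.58.1, R 4.3.3), log2 and quantile normalization over all miRNA probes. Called means a log2 size of 1. The steps were tested on simulated data, in which every changed probe was brighter than any member was on HuH-7-M. That test therefore does not cover the dim range where the offset matters most. No p-value could be given, as each group has 1 array. The 10 miRNAs and the hepatocyte, muscle and blood lists were chosen with earlier results of these data known. Named miRNAs are the members, opposite arms, same-seed, nearest-sequence, neighbouring and nearest-level miRNAs. Mature sequences come from RefSeq (2253 array miRNAs matched). Alternatives covered background, scaling, filter and the authors' table.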

Additional observations from a re-analysis of the deposited data

How the results depend on the processing

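No paired analysis was possible because each culture has 1 array. Apart from the background column and the identifiers of the authors' table, every member stayed below 0 under each alternative that measured it. The count of members at least 2-fold lower (7) stayed within 1.5 times there, and was 10 without an offset, with an offset of 16 and on the Spike Control scale. The members' median (-1.55) was -2.38 with the BLANK mean subtracted, -2.40 when arrays were also left unscaled, -1.89 with an offset of 16, -2.12 on the Spike Control scale, where the median of all measured miRNAs moved to -0.58, and -2.28 in the authors' table. The measured miRNAs at least 2-fold lower (27) were then 73 with the BLANK mean subtracted, 71 unscaled, 73 on the Spike Control scale and 66 in the authors' table. With the background column, chosen after seeing the data, 1 member stayed at least 2-fold lower, the median was -0.032, and miR-658 (0.099) and miR-206 (0.0080) turned above 0. Under the identifiers of the authors' table, also added later, 2 of 7 members were at least 2-fold lower, the median was -0.037, and miR-1296-3p (0.087), miR-7114-3p (0.39) and miR-5190 (0.34) turned above 0. The cause was not tested. Under the No Probe limit 6 members remained and 5 were at least 2-fold lower. With the No Probe mean as 0, also added later, those 6 had a median of -3.05, and 49 measured miRNAs were at least 2-fold lower.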

Other observations

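At the miR-5580-3p spot the scanner's background column read 846 and, on the HuH-7-M array, 101, beside spot intensities of 1325 and 128. At miR-206 it read 170 and 71.3, beside 168 and 76.0. The part of this column in the differences was not tested.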
